A study of Mus musculus with 18 samples.

Results

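The motile axoneme is the microtubule core of a beating cilium, and 52 genes for its parts were followed here across lung epithelial cells sorted by Wnt reporter activity. The genes were picked by the symbol that the array platform gives: the stems Tekt, Rsph, Drc, Cfap, Spef, Dnah, Dnaaf, Dnal, Dnai and Dnaic, the names Spag6, Spag16 and Spag17, and Hydin, Ak7 and the coiled-coil genes Ccdc113, Ccdc103, Ccdc65, Ccdc40 and Ccdc39. The stems matched 57 probe sets. Of these, 4 carried several symbols and were left out, which removed Ccdc103, and Tekt2 had 2 probe sets, so 52 of 30142 measured genes remained. A further 33 genes match the same stems under their present names and are given separately near the end.

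Cells came from mice of the TCF/Lef:H2B/GFP strain, in which TCF/Lef sites, the DNA elements through which Wnt/beta-catenin signalling acts, drive a histone fused to green fluorescent protein. All 3 groups carry this reporter, came from mice 8 to 12 weeks old and received no treatment. They are the Wnt-high (GFPhigh), Wnt-low (GFPlow) and Wnt-negative (GFPneg) fractions of live EpCAM+ cells, with 6 arrays each, and each array holds RNA pooled from 3 to 4 animals. The labelled tissue is distal lung, but the organs were digested together with trachea and bronchi, so the sorted cells can include those of large airways. The reporter reads the level of the fluorescent histone at the sort and not the signal itself. Values are log2 levels of probe sets, and levels are compared here between arrays and never between genes.

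In a motile cilium of the airway, a ring of outer microtubule doublets surrounds a central pair, and dynein motors on each doublet slide it against its neighbour. Outer dynein arms set the power of the beat and inner arms shape it, while nexin links, radial spokes and the central pair hold and coordinate the doublets. These proteins are made in bulk by multiciliated cells, and loss of many of them causes primary ciliary dyskinesia, in which mucus is not cleared.

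The arrays fell into 2 sets with different scales. Array medians were 4.62 to 4.77 in the earlier set (experiments 2 to 5) and 3.55 to 3.69 in the later set (experiments 7 to 9), so groups were compared within sets, each of which holds 3 arrays of every group. A level counted as above background when it exceeded the 95th percentile of 23 background probe sets on its own array, which lay between 4.57 and 5.17. Within a group and set, arrays correlated at 0.977 to 0.997 over all genes, and the lowest value lay among the Wnt-low arrays of experiments 3 to 5. Epithelial markers had list medians of 13.75 to 15.60 on all arrays. The endothelial and immune lists had medians of 3.14 to 4.38, below the background level, though 1 of the 5 endothelial genes, the VEGF receptor Kdr, was 6.01 higher in Wnt-low cells than in the Wnt-negative fraction. Of the 5 immune genes, the lysozyme Lyz1 had means of 14.18 on Wnt-high arrays and 19.05 on Wnt-negative arrays, with a difference of -4.88 (adjusted p = 0.000809 in limma).

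The start-proximal promoters of several of these genes are shown, as RefSeq gives them for GRCm38.p6. Of the 52 genes, 46 had a window of 250 bases before and 50 after the start. Capitals mark GTTGCC, letters that belong to the sites RFX transcription factors recognise, and its variant GTTGCTA, in either orientation, and each line holds the 120 bases before the start. The genes named from Dnaic2 to Drc1 were high in Wnt-high cells, and the last 4 were at background in every group. They were picked after the search, and all those from Dnaic2 to Drc1 hold marked letters. Genes high in Wnt-high cells without these letters in their windows, such as Dnah9 and Dnaic1, are not shown. Of the 2 starts of Tekt1 the window with more marked letters is shown.
Dnaic2: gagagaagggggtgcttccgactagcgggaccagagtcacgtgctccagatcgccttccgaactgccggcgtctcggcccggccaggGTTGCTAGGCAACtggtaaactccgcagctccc
Dnah6: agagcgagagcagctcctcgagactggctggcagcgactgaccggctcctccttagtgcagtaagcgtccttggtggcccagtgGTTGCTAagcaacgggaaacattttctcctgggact
Tekt1: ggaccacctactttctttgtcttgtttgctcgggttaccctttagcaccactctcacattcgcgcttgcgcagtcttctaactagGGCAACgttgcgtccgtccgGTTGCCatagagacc
Hydin: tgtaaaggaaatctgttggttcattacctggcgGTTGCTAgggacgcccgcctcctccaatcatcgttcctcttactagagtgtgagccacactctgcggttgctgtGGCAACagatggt
Dnah5: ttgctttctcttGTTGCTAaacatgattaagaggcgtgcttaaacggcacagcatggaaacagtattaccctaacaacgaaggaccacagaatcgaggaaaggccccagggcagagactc
Drc1: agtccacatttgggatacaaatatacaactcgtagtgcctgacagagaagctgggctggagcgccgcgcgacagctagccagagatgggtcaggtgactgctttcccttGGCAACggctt
Dnah14: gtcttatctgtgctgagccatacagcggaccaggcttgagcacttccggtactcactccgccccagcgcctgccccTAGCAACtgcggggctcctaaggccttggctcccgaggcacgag
Dnah8: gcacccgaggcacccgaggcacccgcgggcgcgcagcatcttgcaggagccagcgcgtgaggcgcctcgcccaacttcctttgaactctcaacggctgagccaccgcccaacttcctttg
Dnah17: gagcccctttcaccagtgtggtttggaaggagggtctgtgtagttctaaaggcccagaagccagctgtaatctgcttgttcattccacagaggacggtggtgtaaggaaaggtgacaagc
Rsph6a: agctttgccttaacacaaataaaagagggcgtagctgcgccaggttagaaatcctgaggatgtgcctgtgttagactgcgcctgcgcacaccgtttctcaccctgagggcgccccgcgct

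The stretch of Dnaic2 is chr11:114727299-114727418 (plus strand), and it holds both words end to end. That of Dnah6 is chr6:73221632-73221751 (minus strand). Tekt1 is at chr11:72361883-72362002 (minus strand) and Hydin at chr8:110266857-110266976 (plus strand), each with the marked letters more than once. Dnah5 is at chr15:28203646-28203765 (plus strand) and Drc1 at chr5:30281273-30281392 (plus strand). Dnah14, at chr1:181576473-181576592 (plus strand), holds GTTGCTA on the opposite strand although its probe set stayed at background. No marked letters stood in the stretches of Dnah8 at chr17:30626816-30626935 (plus strand), Dnah17 at chr11:118129220-118129339 (minus strand) and Rsph6a at chr7:19054567-19054686 (plus strand).

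Searched on both strands of the 300-base windows, GTTGCC was present in 19 of 46 axoneme genes, or 41.3%, against 13.9% of the windows of 15235 measured protein-coding genes. The longer word GTTGCCNNG, which lies within the matches of GTTGCC, was in 26.1% against 5.91%. GTTGCTA, chosen after the windows had been searched, was in 39.1% against 4.21%. Either GTTGCC or GTTGCTA stood in 30 of 46 windows, or 65.2%, against 17.1%. In 22 genes at least 1 of them began within the 120 bases before the start, though in Spef2 it runs past the start. The share of all genes that goes with this count was not computed. The forkhead words TGTTTAC and TGTTTG were in 8.7% against 3.45% and in 15.2% against 18.1%. These are counts of letters, and no binding was measured.

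Wnt-high cells had far higher levels of the axoneme genes than Wnt-negative cells: 48 of 52 were higher and none lower, with a median log2 difference of 6.72. Over all 30142 genes, 15.7% were called higher and 24.6% lower, and the median difference was -0.05. The call was an adjusted p under 0.05 in limma with a term for the set, two-sided, and 0 members were lower at an unadjusted p under 0.05 as well. Every Wnt-high array lay above every Wnt-negative array of its own set for 47 members, against 12.9% of all genes. The arrays of experiments 2 to 5 alone called 47 members higher, against 12.2% of all genes, and those of experiments 7 to 9 alone 47, against 11.3%. Without the term for the set, 46 members passed, against 4.89% of all genes higher and 4.48% lower. For 35 members that passed, Wnt-negative levels were at background in a set. Their difference is given as "at least" a bound that uses the background level. Dnal4 and Tekt5 are given without a bound, because their Wnt-high levels were at background in the later set too. With bounds in place of fitted values, the median was 6.54, and medians over role groups below are of fitted differences.

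Wnt-low cells stood between the other groups. Against Wnt-negative cells 45 of 52 genes were higher and 0 lower (0 also at unadjusted p under 0.05), with a median of 3.39, or 3.21 with bounds. Over all genes 12.3% were higher and 13.2% lower. The earlier set alone called 37 members, against 4.74% of all genes, and the later set alone 44, against 8.32%. Without the set term 38 members passed, against 2.79% of all genes higher and 0.733% lower. Wnt-high cells in turn exceeded Wnt-low cells for 47 genes, with 0 lower (0 also at unadjusted p under 0.05) and a median of 3.39, against 11.4% of all genes higher and 16.4% lower. Without the set term 43 passed, against 2.39% of all genes higher and 2.09% lower. Groups did not overlap within the sets for 43 genes in Wnt-low against Wnt-negative cells, where 8.98% of all genes behaved so, and for 47 in Wnt-high against Wnt-low cells, where 8.04% did. These comparisons share arrays, so their counts are not independent of each other. In sorted bulk cells, fewer cells of a type and less RNA per cell cannot be told apart.

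**Figure D1:**
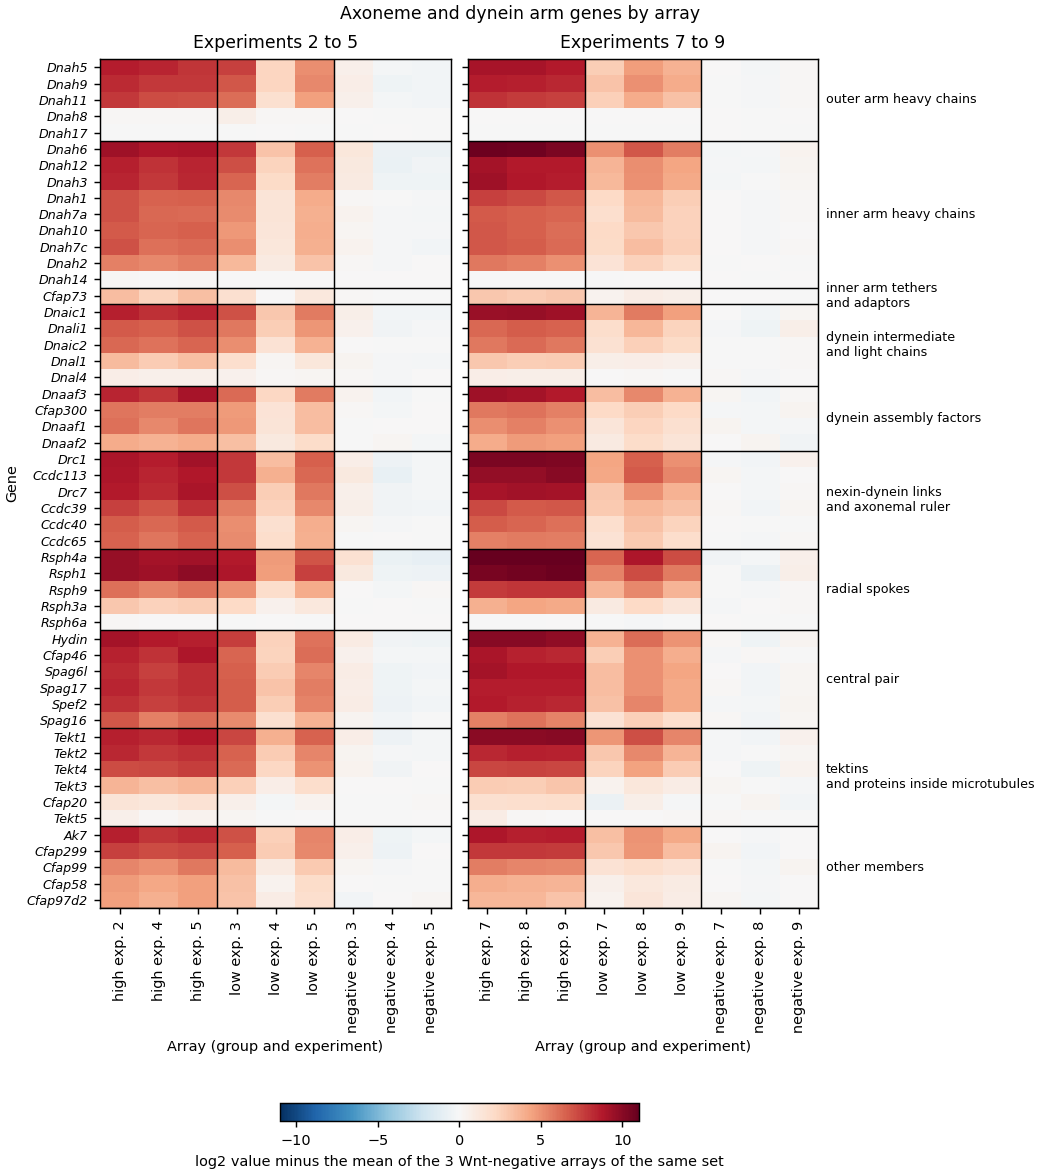
Each row is an axoneme or dynein arm gene, grouped by role, and each column an array, with Wnt-high, Wnt-low and Wnt-negative arrays from left to right in each set; colour is the log2 level minus the mean of the 3 Wnt-negative arrays of that set. Dnah8, Dnah17, Dnah14 and Rsph6a stay pale on all 18 arrays, and the Wnt-low columns differ in shade between experiments.

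The outer arm heavy chains divided into 2 kinds. Dnah5, a motor subunit of the outer arm of airway cilia and a frequent cause of ciliary dyskinesia, read 13.70, 13.41 and 12.91 in the Wnt-high arrays of experiments 2, 4 and 5, and 13.20, 13.25 and 12.87 in those of experiments 7, 8 and 9. The Wnt-low arrays of experiments 3, 4 and 5 had 12.51, 7.40 and 10.17, and those of experiments 7, 8 and 9 had 6.83, 8.75 and 7.96. In Wnt-negative cells Dnah5 was at 5.57, 4.79 and 4.73 in the earlier set and at 4.20, 3.97 and 4.31 in the later set. All Wnt-high arrays were above all Wnt-low arrays, and all of these above the Wnt-negative ones. The log2 difference between Wnt-high and Wnt-negative cells was 8.63 ± 0.64 (SE, adjusted p = 2.08e-08 in limma, 6 arrays each), and at least 8.31 when the background bound is used.

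Dnah9 and Dnah11, the partner heavy chains of Dnah5 in the outer arm, followed it. Dnah9 lay between 12.59 and 13.63 on Wnt-high arrays, between 7.49 and 12.25 on Wnt-low arrays and between 4.20 and 6.19 on Wnt-negative arrays. Its difference between Wnt-high and Wnt-negative cells was at least 7.95 (fitted 8.20 ± 0.55, SE, adjusted p = 9.50e-09 in limma). Dnah11 spanned 11.62 to 12.94 on Wnt-high arrays, 6.68 to 11.31 on Wnt-low arrays and 3.98 to 5.70 on Wnt-negative arrays, with a difference of at least 7.15 (fitted 7.52 ± 0.53, SE, adjusted p = 1.28e-08 in limma). For both genes the 3 groups did not overlap within either set. Dnah8 and Dnah17, the heavy chains that take the corresponding places in the sperm tail, were not above background on any array. Dnah8 read 4.29 to 4.94 in the earlier set and 3.12 to 3.27 in the later set, and its adjusted p between Wnt-high and Wnt-negative cells was 0.343 in limma. Dnah17 read 4.25 to 4.29 and 3.08 to 3.16, with an adjusted p of 0.805 in limma.

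**Figure D2:**
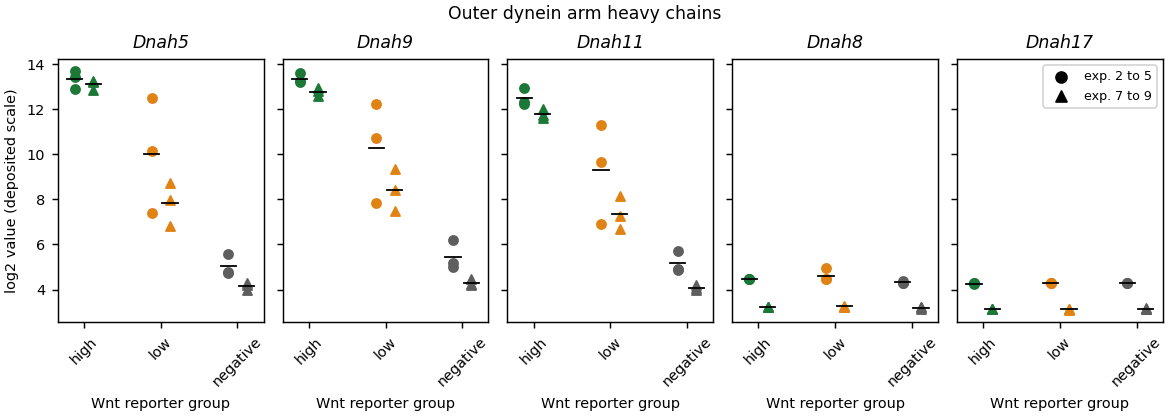
Log2 levels of the 5 outer arm heavy chains by group (Wnt-high, Wnt-low, Wnt-negative), with a point for each array, circles for experiments 2 to 5, triangles for experiments 7 to 9, and a bar at the mean of 3 arrays. Dnah5, Dnah9 and Dnah11 form steps from left to right, while Dnah8 and Dnah17 stay below the background level of each array (4.57 to 5.17). Dnah8 is highest on the Wnt-low array of experiment 3, at 4.938 against a background level of 4.943.

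Inner arm heavy chains, with Dnah14 counted among them, gave 8 of 9 genes higher in Wnt-high cells than in the Wnt-negative fraction. The median over the 9 was 6.54. Dnah6, a single-headed inner arm motor, had the highest fitted difference of the group. It read 14.88 to 15.34 on Wnt-high arrays of experiments 2 to 5 and 14.79 to 15.24 on those of experiments 7 to 9, against 5.39 to 7.25 and 4.20 to 4.84 on Wnt-negative arrays. The Wnt-low arrays lay in between, at 9.13 to 13.77 and at 9.45 to 11.25. Its difference was at least 9.65 (fitted 9.83 ± 0.63, SE, adjusted p = 7.23e-09 in limma). The other single-headed chains Dnah1, Dnah3, Dnah7a, Dnah7c and Dnah12 had differences of at least 6.08 to 8.19. Dnah7a and Dnah7c are near-identical copies whose probes may share target RNA. Dnah2 and Dnah10, which form the double-headed inner arm, were at least 5.18 and 6.17 higher. Dnah14, a heavy chain without an assigned arm, was at background on all 18 arrays, with an adjusted p of 0.285 in limma. Cfap73, whose Chlamydomonas counterpart helps attach the inner arms, was at least 2.20 higher in Wnt-high cells than in the Wnt-negative fraction (fitted 2.98 ± 0.22, SE, adjusted p = 1.95e-08 in limma). Its levels were above background on all 6 Wnt-high arrays, 2 Wnt-low arrays and none of the Wnt-negative arrays.

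Intermediate and light chains, which anchor and regulate the motors, were higher in Wnt-high cells for 5 of 5 genes, with a median of 6.07. Dnaic1, an outer arm intermediate chain mutated in ciliary dyskinesia, read 14.08 to 14.66 and 14.18 to 14.44 on the Wnt-high arrays of the 2 sets. It read 9.02 to 13.12 and 8.63 to 10.58 on Wnt-low arrays, and 5.75 to 6.69 and 4.60 to 5.13 on Wnt-negative arrays. The groups did not overlap, and the difference between Wnt-high and Wnt-negative cells was 8.89 ± 0.55 (SE, adjusted p = 5.88e-09 in limma). Dnaic2, its partner, was at least 5.85 higher, the inner arm light chain Dnali1 6.61 higher and the outer arm light chain Dnal1 3.02 higher. Dnal4, a further light chain, had the lowest fitted difference of these genes. Its Wnt-high arrays read 5.81 to 5.94 and 4.57 to 4.62, against 5.06 to 5.32 and 3.80 to 4.02 on Wnt-negative arrays. The fitted difference was 0.65 ± 0.07 (SE, adjusted p = 1.39e-06 in limma). No bound is given, because both groups were at background in the later set. The call rests on the set term, since without it the adjusted p was 0.682 in limma. In Wnt-low cells Dnal4 read 5.37 to 5.66 and 3.87 to 4.02 and did not pass against Wnt-negative cells (adjusted p = 0.164 in limma).

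Factors that assemble dynein arms in the cytoplasm were higher for 4 of 4 genes, with a median of 5.63. Dnaaf3 read 12.96 to 14.16 and 12.41 to 12.98 on Wnt-high arrays, 7.39 to 11.34 and 7.06 to 8.96 on Wnt-low arrays, and 4.81 to 5.43 and 3.33 to 3.85 on Wnt-negative arrays. The difference between Wnt-high and Wnt-negative cells was at least 8.19, and the groups did not overlap. Dnaaf2, which works with chaperones on the heavy chains, differed least in the group, by 4.22 ± 0.31 (SE, adjusted p = 2.25e-08 in limma). Its Wnt-negative arrays still read 7.33 to 7.82 in the earlier set and 4.84 to 5.51 in the later set. Dnaaf1 was 5.50 higher and Cfap300 at least 5.50.

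All 6 genes of the nexin links and of the axonemal ruler, the coiled-coil pair Ccdc39 and Ccdc40 that fixes the spacing of arms along the doublet, were higher in Wnt-high cells, with a median of 8.05. Drc1, a core subunit of the nexin link, had the highest fitted difference. It read 14.70 to 15.37 and 14.77 to 14.94 on Wnt-high arrays, 9.50 to 13.89 and 8.86 to 11.07 on Wnt-low arrays, and 5.59 to 6.84 and 4.22 to 4.99 on Wnt-negative arrays. The difference was 9.63 ± 0.61 (SE, adjusted p = 7.07e-09 in limma). Ccdc65, also of that core, had the lowest fitted value, at least 4.97 (fitted 5.96 ± 0.43, SE). Its Wnt-negative level was not above background on any of the 6 arrays. Drc7, an outer subunit of the link, showed the widest fitted step between Wnt-high and Wnt-low cells of all 52 genes, 4.32 ± 0.58 (SE, adjusted p = 3.14e-05 in limma). Dnaaf3 and Dnah5 came next, with steps of 4.30 and 4.29. Ccdc113, a ciliary protein near the link, was at least 8.98 higher in Wnt-high cells, Ccdc39 at least 6.79 and Ccdc40 6.47 higher.

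Of 5 radial spoke genes, 4 were higher in Wnt-high cells, with a median of 6.83. Rsph4a, a spoke head protein whose loss leaves airway cilia without a stable central pair, read 16.59, 16.18 and 16.24 in the Wnt-high arrays of experiments 2, 4 and 5, and 16.41, 16.60 and 16.56 in those of experiments 7, 8 and 9. Wnt-low arrays of experiments 3, 4 and 5 read 15.72, 11.68 and 13.95, and those of experiments 7, 8 and 9 read 11.12, 13.63 and 11.90. In Wnt-negative cells Rsph4a was at 8.66, 6.30 and 6.07 in the earlier set and at 4.36, 4.55 and 5.35 in the later set. The groups stood apart in both sets, and the fitted difference between Wnt-high and Wnt-negative cells was 10.55 ± 0.67 (SE, adjusted p = 7.07e-09 in limma). The Wnt-negative arrays of experiments 7 and 8 were not above background. Rsph1, its partner in the spoke head, was 10.10 higher, Rsph9 6.83 and the spoke stalk gene Rsph3a 3.44. Rsph3a shares its sequence with Rsph3b, so its probes may read both. Rsph6a, the sperm relative of Rsph4a, was at 4.16 to 4.29 and 2.83 to 2.96 across all groups, below background on every array, with an adjusted p of 0.826 in limma.

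The 6 central pair genes were all higher, with a median of 8.40. Hydin, the giant protein of the central pair that is mutated in hydrocephalic mice, read 14.16 to 14.83 and 14.11 to 14.37 on Wnt-high arrays. It read 8.17 to 13.28 and 8.14 to 10.50 on Wnt-low arrays, and 5.17 to 6.53 and 3.88 to 4.63 on Wnt-negative arrays. The difference between Wnt-high and Wnt-negative cells was at least 9.14 (fitted 9.37 ± 0.65, SE). Spag17, Spag6l (Spag6 on the platform), Spef2 and Cfap46, also parts of the central apparatus, were at least 7.79 to 8.30 higher. Spag16 had the lowest fitted difference, at least 4.73, and was not above background on any Wnt-negative array.

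Tektins and other proteins inside the microtubules spread more widely. Tekt1, a tektin filament of the doublets, was at least 8.87 higher in Wnt-high cells than in the Wnt-negative fraction (fitted 9.22 ± 0.52, SE, adjusted p = 4.78e-09 in limma), with Wnt-high levels of 14.02 to 14.67, Wnt-low levels of 8.99 to 13.33 and Wnt-negative levels of 3.81 to 6.72 over both sets. Tekt2 and Tekt4 were at least 7.83 and 7.08 higher and Tekt3 at least 2.79. Tekt3, like Dnah8, Dnah17, Rsph6a and Tekt5, had been listed as a sperm paralogue, and it exceeded background on all 6 Wnt-high arrays. Tekt5, a tektin of sperm, had levels of 5.19 to 5.60 and 3.78 to 4.48 on Wnt-high arrays, 5.01 to 5.30 and 3.78 to 3.79 on Wnt-low arrays, and 5.04 to 5.12 and 3.64 to 3.80 on Wnt-negative arrays. The Wnt-high and Wnt-negative arrays overlapped in the later set. The fitted difference of 0.34 ± 0.10 (SE) passed in both sets together (adjusted p = 0.0127 in limma) but in neither set alone, where the adjusted p was 0.0623 and 0.24. No bound is given, because both groups were at background in the later set.

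Among the members that passed, the Wnt-low mean of Cfap20 lay nearest to its Wnt-negative mean, as a share of the Wnt-high minus Wnt-negative difference. Cfap20, a protein of the inner junction of the doublets, was singled out for this after its values were seen. It read 14.08, 13.91 and 14.27 in the Wnt-high arrays of experiments 2, 4 and 5 and 13.03, 13.09 and 13.15 in experiments 7, 8 and 9. Wnt-low arrays read 13.23, 12.45 and 13.05, then 10.56, 11.87 and 11.11, and Wnt-negative arrays 12.64, 12.60 and 12.78, then 11.23, 11.52 and 10.98. The Wnt-low and Wnt-negative arrays overlapped in both sets. The difference of Wnt-high over Wnt-negative cells was 1.63 ± 0.20 (SE, adjusted p = 4.89e-06 in limma), while that of Wnt-low over Wnt-negative cells was 0.09 ± 0.20 (SE, adjusted p = 0.802 in limma).

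The remaining 5 members were all higher in Wnt-high cells. Ak7, an adenylate kinase linked to ciliary function, was at least 8.05 higher (fitted 8.46 ± 0.53, SE), with 12.52 to 13.86 on Wnt-high, 7.30 to 12.26 on Wnt-low and 3.88 to 5.99 on Wnt-negative arrays. Cfap97d2 had the lowest fitted difference of these 5, at least 3.16, with 6.91 to 9.27 on Wnt-high, 4.15 to 7.89 on Wnt-low and 3.54 to 4.97 on Wnt-negative arrays. It was not above background on any Wnt-negative array. Cfap299 was 7.55 higher, Cfap99 at least 5.25 and Cfap58 at least 3.76.

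In Wnt-negative cells the axoneme genes were mostly near background. Only 5 members, Cfap20, Rsph3a, Rsph9, Dnali1 and Cfap299, exceeded it on all 6 Wnt-negative arrays, against 35.8% of all genes, and 10 exceeded it on none. Above background on all 6 Wnt-high arrays were 46 members, and 42 were on all 6 Wnt-low arrays. The shares of all genes that go with the counts of 10, 46 and 42 were not computed. The exceptions among Wnt-high arrays were Dnah8, Dnah17, Dnah14, Rsph6a, Dnal4 and Tekt5.

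**Figure D3:**
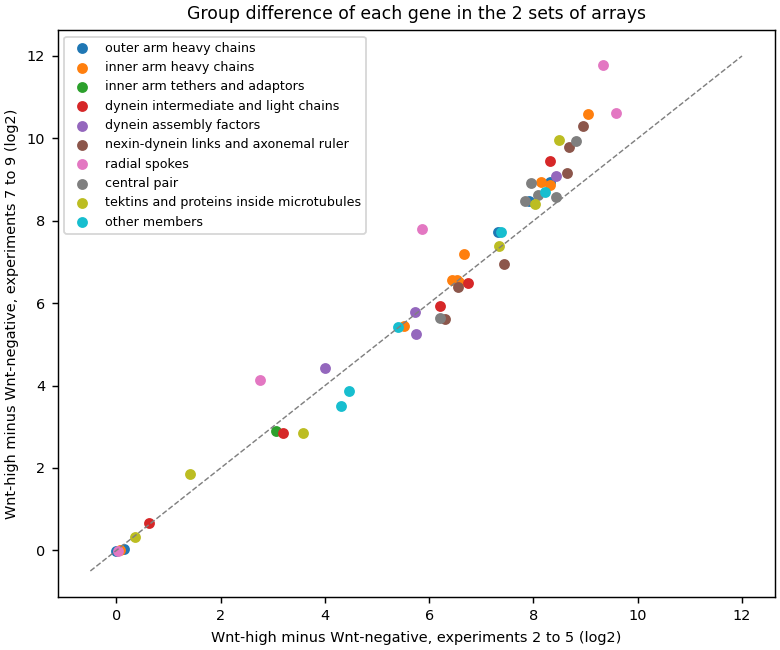
Each point is 1 of the 52 genes, coloured by role, with the log2 difference of Wnt-high over Wnt-negative cells in experiments 2 to 5 on the horizontal axis and in experiments 7 to 9 on the vertical axis; the dashed line marks equal values. Most points lie near the line, from about 0 for the background genes to the radial spoke genes Rsph1 and Rsph4a at the upper right. Rsph4a (9.33 and 11.77) and Rsph9 (5.85 and 7.80) lie farthest above the line.

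The sets gave like differences. Over the 52 genes, the Wnt-high minus Wnt-negative differences of the 2 sets correlated at r = 0.981, against 0.965 over all genes, as a description of genes that share arrays. The median was 6.62 in the earlier and 6.76 in the later set. No member's change differed between the sets after adjustment with all 3 groups fitted (0 of 52 and 0 of 30142 genes in limma's interaction term, lowest adjusted p of a member 0.632). At an unadjusted p under 0.05 there were 2 members, the radial spoke genes Rsph3a and Rsph9, and 6.44% of all genes. Rsph3a differed by 2.75 in the earlier set and 4.14 in the later, and Rsph9 by 5.85 and 7.80. The Wnt-low arrays add to the spread of that fit. With only Wnt-high and Wnt-negative arrays fitted, 2 members and 58 genes were called after adjustment.

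Over the 48 members that passed, the Wnt-low mean was placed on a log2 scale that has the Wnt-high mean at its top and the Wnt-negative mean at 0. The median place was 50.6%, and most genes lay close to it, with quartiles of 44.8% and 55.3%. Rsph4a was farthest along, at 67.5%, followed by Rsph1 at 64.8% and Tekt1 at 63.5%. The lowest places belonged to Cfap20 at 5.28%, Tekt5 at 20.9%, Dnal4 at 22.0% and Cfap73 at 26.9%. For 35 of the 48 the Wnt-negative level was at background in a set, so that the lower end of their scale is itself a bound. These places were not tested between genes.

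**Figure D4:**
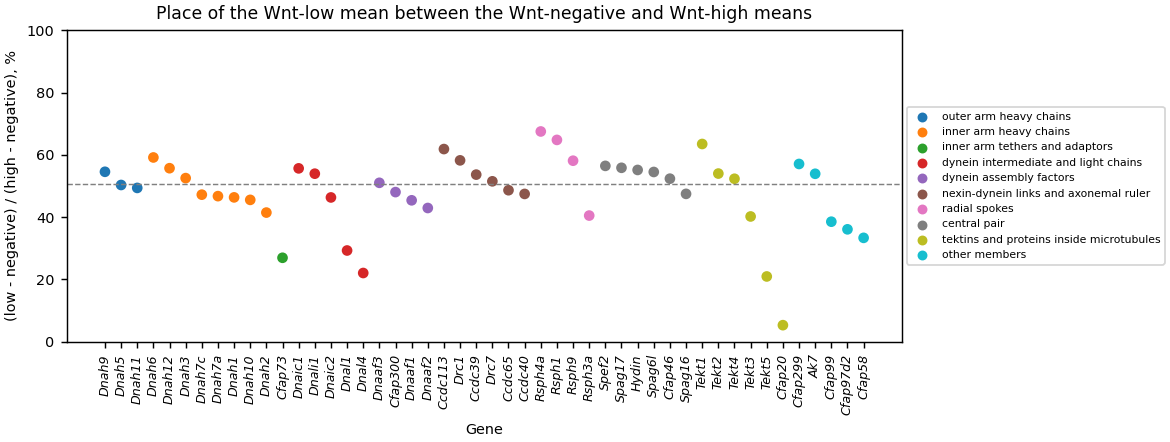
For each of the 48 genes higher in Wnt-high cells than in the Wnt-negative fraction, the vertical axis gives the place of the Wnt-low mean between the Wnt-high mean (top of the axis) and the Wnt-negative mean (0%) on the log2 scale, coloured by role, with a dashed line at the median of 50.6%. Cfap20 at 5.28% and Rsph4a at 67.5% are the extremes.

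The Wnt-low arrays differed from each other far more than the arrays of the other groups. The median range of a member over 3 arrays was 3.46 and 1.40 in Wnt-low cells in the 2 sets, against 0.53 and 0.37 in Wnt-high cells and 0.61 and 0.37 in Wnt-negative cells. The members moved together. The Wnt-low array of experiment 3 was above that of experiment 5, and that above experiment 4, for 48 of 52 members, an order shown by 14.5% of all genes. In the later set the order was experiment 8, then 9, then 7 for 45 members, against 9.97% of all genes. Relative to the Wnt-high mean of its set, the median of the 48 passing members in Wnt-low cells was -1.18 in experiment 3, -4.87 in experiment 4, -2.39 in experiment 5, -4.71 in experiment 7, -3.14 in experiment 8 and -4.20 in experiment 9. On the linear form of the deposited scale this runs from 44.2% of the Wnt-high level in experiment 3 to 3.41% in experiment 4.

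The fit takes 1 spread for all 3 groups, so that of the Wnt-low arrays entered every comparison. For Dnah5 the SE was 0.635 in all 3. Member counts differed most between the sets for Wnt-high against Wnt-low cells. In experiments 2 to 5 alone only 10 members passed, with a median of 2.77, against 4.80% of all genes, although for 47 members every Wnt-high array lay above every Wnt-low array of its set. In experiments 7 to 9 alone 47 passed, with a median of 3.91, against 8.65% of all genes. Wnt-negative cells showed a smaller offset of the same kind. The Wnt-negative array of experiment 3 was above those of experiments 4 and 5 for 42 members, against 24.3% of all genes, by a median of 0.51 and by up to 2.47 for Rsph4a.

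Markers of ciliated cells that are not members moved with these genes. All 9 measured were higher in Wnt-high cells than in the Wnt-negative fraction, with a median of 7.57, and their Wnt-low medians read 14.34, 10.32 and 12.57 in experiments 3, 4 and 5 and 8.76, 11.75 and 9.84 in experiments 7, 8 and 9, the same order of arrays as the members. Alveolar type II markers went the other way in 9 of 10 genes, with a median of -3.43. Their list medians in the Wnt-low arrays were 17.28, 18.14 and 17.51, then 17.03, 19.06 and 19.16, so that in experiment 3 they were lowest in the earlier set, but in the later set lowest in experiment 7. Goblet and mucous markers were higher in Wnt-low cells than in the Wnt-negative fraction for 7 of 7 genes, with a median of 10.38, and lower in Wnt-high than in Wnt-low cells for all 7. Against Wnt-negative cells they were also higher in Wnt-high cells for 5 of 7 genes and lower for 1, with a median of 3.70. In the same comparison club cell markers were higher for 4 of 5 genes, with a median of 3.53, and alveolar type I markers were lower for 7 of 8 and higher for 1, with a median of -1.91. The part of any other cell type in the values of the axoneme genes was not tested.

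**Figure D5:**
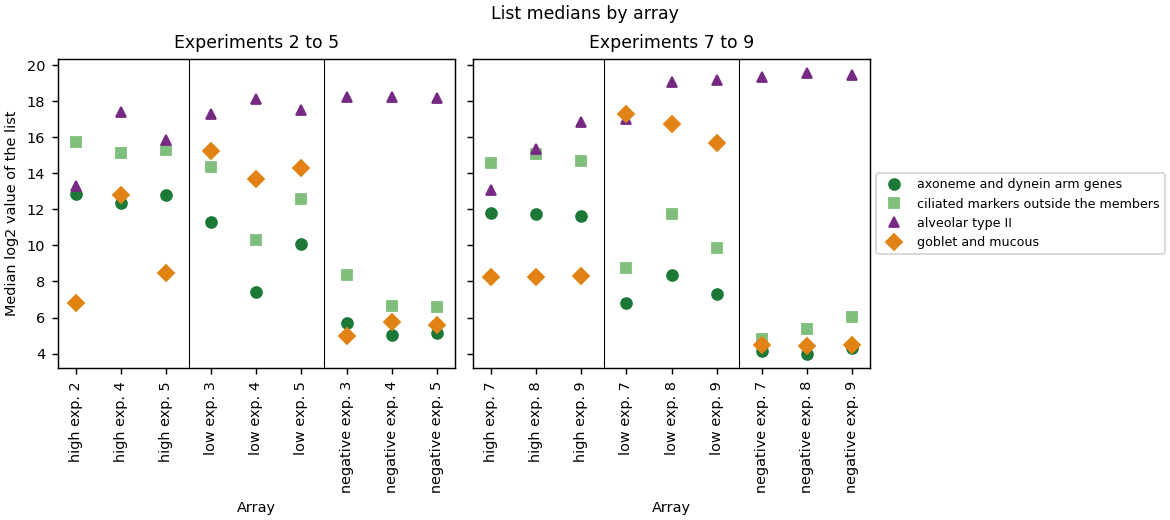
Median log2 level on each array of the 52 axoneme genes, 9 other ciliated cell markers, 10 alveolar type II markers and 7 goblet and mucous markers, with Wnt-high, Wnt-low and Wnt-negative arrays from left to right in each set; heights compare arrays within a list and not lists with each other. The axoneme genes and the other ciliated markers rank the Wnt-low arrays alike, while the goblet markers are highest in Wnt-low cells.

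Other axoneme genes have platform symbols outside the stems. Their differences, and those of the lists after them, are fitted values with no bound computed. Of 30 measured, 29 were higher in Wnt-high cells than in the Wnt-negative fraction and none lower, with a median of 6.20, and 28 were higher in Wnt-low cells, with a median of 2.85. Nme5, a radial spoke protein, had the highest fitted difference at 10.26, and Nme8, a thioredoxin-domain protein of the outer arm and sperm tail, did not pass at -0.08. Drc3, Iqcg and Gas8 of the nexin links, and the assembly factors Zmynd10 and Lrrc6, were among those higher. Of the 33 genes that match the stems under present names only, 31 were higher in Wnt-high cells, with a median of 6.08, and 29 were higher and 1 lower in Wnt-low cells. The lower one was Cfap97, at -0.29, and its call was lost without the set term. In that fit 21 genes of this list and 19 of the list before it were higher in Wnt-low than in Wnt-negative cells. For Wnt-high against Wnt-negative cells the counts without the set term were 29 and 28. This list shares Drc3 and Dnaaf6 with the list before it.

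Intraflagellar transport genes, which carry cargo along the axoneme and also serve primary cilia, mostly rose as well: 22 of 24 were higher in Wnt-high cells than in the Wnt-negative fraction, with a median of 3.56. Ift22 had the widest fitted difference at 5.69, while Ift20, which also works at the Golgi, and Ttc21b were lower, at -0.53 and -0.52. Neither of these passed without the set term, while the 22 did. In Wnt-low against Wnt-negative cells 21 were higher and 1 lower, with a median of 1.36, and 7 of the 21 calls held without the set term. The cytoplasmic dynein genes, motors of general transport, split: of 9 measured, Dynll1 (0.99) and Dync1i2 (0.86) were higher, Dync1li2 (-0.65) and Dynlt3 (-0.24) lower, and the median was 0.00. None of these 4 passed without the set term (0 higher, 0 lower). The heavy chain Dync1h1 had means of 11.36 ± 0.64, 11.17 ± 0.63 and 11.38 ± 0.76 in Wnt-high, Wnt-low and Wnt-negative cells (SD over both sets, 6 arrays each).

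Regulators of multiciliated cell formation did not all share the step. Myb (6.35), Trp73 (4.60), Deup1 (4.47), Rfx2 (3.33) and Rfx3 (3.31) were higher in Wnt-high cells than in the Wnt-negative fraction, 5 of 8 measured. Mcidas, which starts the multiciliated programme, Ccno and Cdc20b, which act while basal bodies multiply, did not pass there and were lower in Wnt-high than in Wnt-low cells, with differences of -1.51, -0.77 and -1.58. Without the set term 1 of these 3 calls held, that of Cdc20b. All 47 axoneme genes called in that comparison were higher in Wnt-high cells. Foxj1, the master regulator of motile cilia, had no probe set of its own and is not reported.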

How the data were processed

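The deposited values are log2 levels of 72688 probe sets on 18 Affymetrix arrays, made by the authors with RMA, per the submitters' processing notes. The chip library, the software and the build were not given in the sources used here. From each pool 8 ng of RNA was used. The lowest value was 1.79 and the highest 19.93, more than a 16-bit scanner can give on this scale, so differences are log2 differences on the deposited scale. The 2 sets of arrays differed in medians and decimals (5 and 6), as separate normalization leaves them, and 153 and 235 probe sets had 1 value throughout a set.

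The platform annotation gave the gene names of probe sets: 30604 had 1 symbol, 2146 several and 33206 none. A gene was taken from its single-symbol probe set with the highest mean, and the 827 symbols that had changed were brought up to date for names only. The members, roles and gene lists were chosen with earlier results of these data known. Genes with full statistics were, by rule, all outer arm heavy chains, the highest and lowest Wnt-high minus Wnt-negative difference of each role, members that did not pass, and the 3 highest and 3 lowest Wnt-high minus Wnt-low differences.

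Two-sided tests came from lmFit and eBayes of limma 3.58.1, run under R 4.3.3, on all 18 arrays with group and set as terms, adjusted by Benjamini-Hochberg over 30142 genes, threshold 0.05. The p-values measure the spread between pools of separate experiments, and the number of arrays limits their precision. The fit was first tested on simulated data. For members, a bound ("at least") is given in place of or beside the fitted difference of Wnt-high from Wnt-negative cells where the lower group was at background in a set: its level was taken as the higher of its own value and the background percentile on each array. For Dnal4 and Tekt5 both groups were at background in the later set, so no bound is given.

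The labels give arrays of different groups shared experiment numbers. Experiment 2 has only a Wnt-high array, and experiment 3 has only Wnt-low and Wnt-negative arrays. Over 16 pairs of arrays with the same number, deviations from group means correlated at 0.486 to 0.802. With the set means removed the correlations were 0.00339 to 0.516, above 0.1 for 12 pairs. Experiment was therefore tried as a replicate block. Alternatives also included centring, quantile normalization, a filter on dim genes, other probe set rules, other priors and weights, each set alone and leaving out each experiment.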

Additional observations from a re-analysis of the deposited data

Results flagged for a closer look

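In 5 of 72 groups of 6 arrays tested, 1 array stood apart from the others of its group after the group and set mean was removed, by a gap that is large against the group's range (Dixon's test at 95%). Chance gives about 1 such group in 20 for independent values. That rate does not apply here, because set means were removed and levels at background were nearly tied. All 5 belong to members at background, and the deviations were small: -0.0147 for Dnah17 in Wnt-high experiment 4, 0.0224 for Dnah8 in Wnt-high experiment 2, -0.0177 for Dnah14 in Wnt-low experiment 7, -0.00145 for Dnah14 in Wnt-negative experiment 8 and 0.0315 for Rsph6a in Wnt-negative experiment 7.

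Probe sets left out of the comparisons also stood higher in Wnt-high cells in both sets, against the Wnt-negative arrays. The log2 difference was 6.43 for the probe set of Dnah7b and Dnah7c, 3.17 for that of Cenpb and Spef1, 3.74 for that of Ccdc103 and Fam187a, and 3.28 for that of Rsph3a and Rsph3b. Which gene of each pair gives the signal cannot be told apart. The second probe set of Tekt2 differed by 1.77, with means of 5.75 on Wnt-high arrays, 4.56 on Wnt-low arrays and 3.99 on Wnt-negative arrays, against at least 7.83 (fitted 8.22) for the brighter Tekt2 probe set.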

How the results depend on the processing

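With the experiment as a replicate block, fixed or random, 48 and 48 members were higher in Wnt-high against Wnt-negative cells, 45 and 45 in Wnt-low against Wnt-negative cells, and 47 and 48 in Wnt-high against Wnt-low cells; these counts stayed within 1.5 times those without the block. Leaving out 1 experiment at a time gave 48 to 49, 44 to 45 and 47 to 48 members higher in the same 3 comparisons and 0 lower, medians of 6.55 to 6.81, 3.02 to 3.65 and 3.12 to 3.77, and 10772 to 11618, 6071 to 7660 and 7178 to 8582 genes called. It gave 0 members and 0 to 46 genes whose change differed by set. The term for the set mattered for the number of all genes: without it and without a block, 2824, 1061 and 1351 genes were called, against 12142, 7697 and 8402 with it, while 46, 38 and 43 members stayed higher. Experiments 7 to 9 alone called 7906 genes in Wnt-high and 4471 in Wnt-low against Wnt-negative cells. Experiments 2 to 5 alone called 2532 genes in Wnt-low against Wnt-negative cells and 3291 in Wnt-high against Wnt-low cells, with 10 members higher. Fewer arrays enter each of these fits. Under updated symbols the rule takes 85 genes, of which 79, 74 and 78 were higher and 0, 1 and 0 lower. The difference by set called 2 members and 58 genes with 2 groups fitted at a time, and 23 genes without the Wnt-low arrays of experiments 3 and 4, an alternative chosen after seeing the data, under which 49, 45 and 47 members were higher. Centring each array moved the share of calls that were higher over all genes to 51.3% in Wnt-high and 65.2% in Wnt-low against Wnt-negative cells, compared with 38.9% and 48.2% as deposited, with 50 and 47 members higher. For the named genes, 1327 values under the alternatives kept their side of the threshold, 29 lost their call and 12 gained one, and no called value changed direction; Cfap73 in Wnt-low against Wnt-negative cells lost its call without experiment 5 (adjusted p = 0.0621). Levels below background limit what the differences of 35 members can show in a set.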

Other observations

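The 33 genes that join the stems only under present names carry the stems Cfap, Dnaaf, Drc, Rsph and Spef and were not grouped by role. The assembly factors Dnaaf4 and Dnaaf5 were 6.38 ± 0.39 and 3.57 ± 0.29 higher in Wnt-high cells against Wnt-negative cells (SE, 6 arrays each). Cfap43 and Cfap44, which tether the inner arm with the double head, were 7.96 and 8.49 higher, and Cfap100, the partner of Cfap73, was 4.65 higher. Cfap52, Cfap45 and Cfap53, proteins inside the doublet, were 7.97, 3.74 and 3.81 higher. Cfap65 had the widest fitted difference, 10.07 ± 0.60, with means of 15.99 on Wnt-high arrays, 12.32 on Wnt-low arrays and 5.92 on Wnt-negative arrays. The 2 genes that did not pass were Cfap97 (0.04) and Cfap97d1 (-0.09). Each gene called higher here had an adjusted p under 0.05 in limma. All differences here are fitted values with no bound computed for levels at background. These genes were picked after their values were seen.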
